A study of Mus musculus with 9 samples.

Results

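The genes described here had their highest level in melanocyte stem cells (McSC) of 24-month-old mice. They were chosen from measured levels of 9 RNA-seq libraries: a protein-coding gene qualified when its 24-month mean was at least 10 CPM (counts per megacount of the library, scaled with TMM factors) and at least 1.6 times the adult mean, and when both 24-month libraries lay above every adult and every melanoblast library. Of 49671 genes in the counts, 21734 are annotated as protein-coding and 7340 of these reached the level, and 172 met all conditions. Atp6v0d2 and Trim9 were left out by name, which leaves 170 members. The same rule gave 213 genes without adult replicate 1, 166 without adult replicate 2, 186 without melanoblast replicate 3, 303 without 24-month replicate 1 and 310 without 24-month replicate 2. Because these values chose the members, the difference between 24-month and adult or melanoblast libraries is given below as a description, with no test.

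The libraries came from KIT+ CD45- cells of the dermis of female C57BL/6 mice, where KIT is a receptor of the melanocyte lineage and CD45 (gene Ptprc) marks blood-derived cells. They form 3 ages: melanoblasts, which are still immature pigment cells, from pups at postnatal day 0.5 (n = 3), quiescent McSC of adults at 8 to 10 weeks (n = 4) and quiescent McSC of aged mice at 24 months (n = 2). Both McSC groups were sorted while hair follicles were in telogen, when hair does not grow. No gene was altered and no agent was given in any group, per the labels. Each library pooled the cells of several animals, so the spread between libraries is that between pools. The pups and adults descend from C57BL/6J animals mated on site. The 24-month mice were bought at 21 months from an aged rodent colony, so that effects of colony and of age cannot be told apart.

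McSC sit in the bulge and hair germ region of the hair follicle and are the reserve from which pigment cells are renewed at each hair cycle. Hair greys when this reserve is lost or no longer produces pigment cells. Work on aged stem cells of many tissues describes changes in adhesion, secreted factors, innate immune genes and the transcription factors that hold cells in quiescence. The 170 include genes for adhesion, secreted signals, innate immunity and transcription factors. These roles were assigned after the members were known and to no other genes, so no match with that work is read from them.

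Total counts were 23688288 to 33710117 in melanoblast libraries, 19956424 to 21572026 in adult libraries, and 16362560 and 12594770 in 24-month replicates 1 and 2. A level of 10 CPM stands for 247 and 173 counts in the 24-month libraries, against 234 to 257 counts in adult libraries. Kit ran from 732 to 848 CPM at 24 months and from 599 to 1610 CPM in adults, and Dct, a pigment enzyme of the lineage, from 3499 to 5200 CPM at 24 months and from 1871 to 4729 CPM in adults. Ptprc was at 6.31 to 7.47 CPM at 24 months and 4.15 to 7.44 CPM in adults. These are bulk samples, so a change in the mix of cells and a change of RNA per cell cannot be told apart. Melanoblast replicate 3 and adult replicates 1 and 2 stood apart within their groups in how many genes they detected, as described further on, and results that rest on them are given without them as well.

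Promoter windows are shown for 5 members because they carry the largest ratio (Ctnnd2), the largest 24-month levels outside overlapping genes (Klf4, Nabp1) and an adaptor and protease that work together (Pycard, Casp1). Each window runs from 250 bases before to 50 bases after the annotated start, 5′ to 3′ on the gene's strand, from RefSeq on GRCm38.p6. Capitals mark CACGTG (the E-box that MITF and MYC family proteins can bind), CATGTG (a related E-box found in M-boxes), GGGCGG (the GC box of SP and KLF proteins) and CCAAT, found on either strand. The windows are chr15:30172284-30172583 (+) for Ctnnd2, chr4:55532426-55532725 (-) for Klf4, chr1:51478350-51478649 (-) for Nabp1, chr7:127993818-127994117 (-) for Pycard and chr9:5298267-5298566 (+) for Casp1.
Ctnnd2: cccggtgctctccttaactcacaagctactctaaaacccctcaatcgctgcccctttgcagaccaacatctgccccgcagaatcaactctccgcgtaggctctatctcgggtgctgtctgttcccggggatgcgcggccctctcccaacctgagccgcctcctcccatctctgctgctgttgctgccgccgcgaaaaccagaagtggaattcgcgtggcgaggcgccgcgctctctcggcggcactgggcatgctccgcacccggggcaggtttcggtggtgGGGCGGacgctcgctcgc
Klf4: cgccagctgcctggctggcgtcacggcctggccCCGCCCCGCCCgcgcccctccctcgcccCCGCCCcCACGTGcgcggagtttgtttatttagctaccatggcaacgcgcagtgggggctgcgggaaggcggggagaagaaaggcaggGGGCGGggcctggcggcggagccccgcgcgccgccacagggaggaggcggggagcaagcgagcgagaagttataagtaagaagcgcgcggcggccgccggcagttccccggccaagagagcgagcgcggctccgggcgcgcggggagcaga
Nabp1: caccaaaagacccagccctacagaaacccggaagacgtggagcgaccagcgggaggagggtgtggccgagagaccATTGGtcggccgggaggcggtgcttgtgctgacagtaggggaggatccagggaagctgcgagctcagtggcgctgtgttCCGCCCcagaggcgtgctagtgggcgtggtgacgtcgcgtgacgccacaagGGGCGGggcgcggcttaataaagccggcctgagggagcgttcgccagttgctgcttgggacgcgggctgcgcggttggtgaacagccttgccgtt
Pycard: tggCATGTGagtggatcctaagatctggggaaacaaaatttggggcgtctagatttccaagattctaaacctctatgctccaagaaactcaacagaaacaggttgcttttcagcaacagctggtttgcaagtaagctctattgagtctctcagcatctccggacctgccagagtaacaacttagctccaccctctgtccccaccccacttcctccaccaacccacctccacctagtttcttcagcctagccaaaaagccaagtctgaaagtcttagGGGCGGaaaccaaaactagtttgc
Casp1: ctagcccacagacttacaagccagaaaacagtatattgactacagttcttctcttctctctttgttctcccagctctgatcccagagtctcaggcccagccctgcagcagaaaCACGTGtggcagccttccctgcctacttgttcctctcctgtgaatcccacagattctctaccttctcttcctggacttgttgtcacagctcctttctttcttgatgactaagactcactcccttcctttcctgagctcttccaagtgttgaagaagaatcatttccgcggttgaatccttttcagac
The Klf4 window is the most GC-rich of the 5 at 74.3%, with 4 GC boxes and 1 CACGTG, while the Pycard and Casp1 windows have 48.0% GC each. CACGTG was in 4.76% of the 168 windows of the 128 members with an entry, against 8.06% of the 19912 other windows. GGGCGG was in 44.1% of member windows against 47.9% of the others, CCAAT in 38.7% against 37.8%, and CATGTG in 10.7% against 11.2%. Further motifs were searched in the same way. TGACGTCA, the cyclic AMP response element, was in 4.76% of member windows against 2.30%. TGACTCA, the AP-1 site, was in 3.57% against 4.66%. TTCNNNGAA, a STAT site, was in 2.38% against 7.79%. The core of the interferon-stimulated response element was in 3.57% against 3.42%, TATAAA in 9.52% against 12.1%, and TGTTTAC, a FOX site, in 2.38% against 2.96%. Median GC of the windows was 56.8% for members and 57.0% for the others. TGACGTCA was the motif more frequent in member windows by the largest factor, and it was in 8 of them.

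Most members were expressed at low to moderate levels, and most differed from adult cells by about 2-fold. The 24-month mean ran from 10.0 to 405 CPM with a median of 13.9 CPM. It was under 20 CPM in 125 members, at least 50 CPM in 16 and at least 100 CPM in 6. The ratio of the 24-month to the adult mean ran from 1.605 to 5.42 with a median of 1.98. It was at least 2 in 83 members and at least 3 in 15. The lowest 24-month library lay between 1.00 and 3.98 times the highest of the other 7 libraries, with a median of 1.29 times. In 30 members this gap was under 1.1 times, and in 6 it was at least 2 times. The highest of the other libraries was an adult one for 133 members and a melanoblast one for 37, of which melanoblast replicate 3 gave 35. The 2 members just inside the ratio threshold were Cfap70 at 1.605 and St6galnac5 at 1.609, and the genes just outside were Map3k9 at 1.598 and Adgrg2 at 1.593. At the level threshold, Celf3 at 10.03 CPM and Rasl11b at 10.04 CPM lay inside, and Wscd2 at 9.999 CPM and Dmbt1 at 9.953 CPM lay outside.

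**Figure D1:**
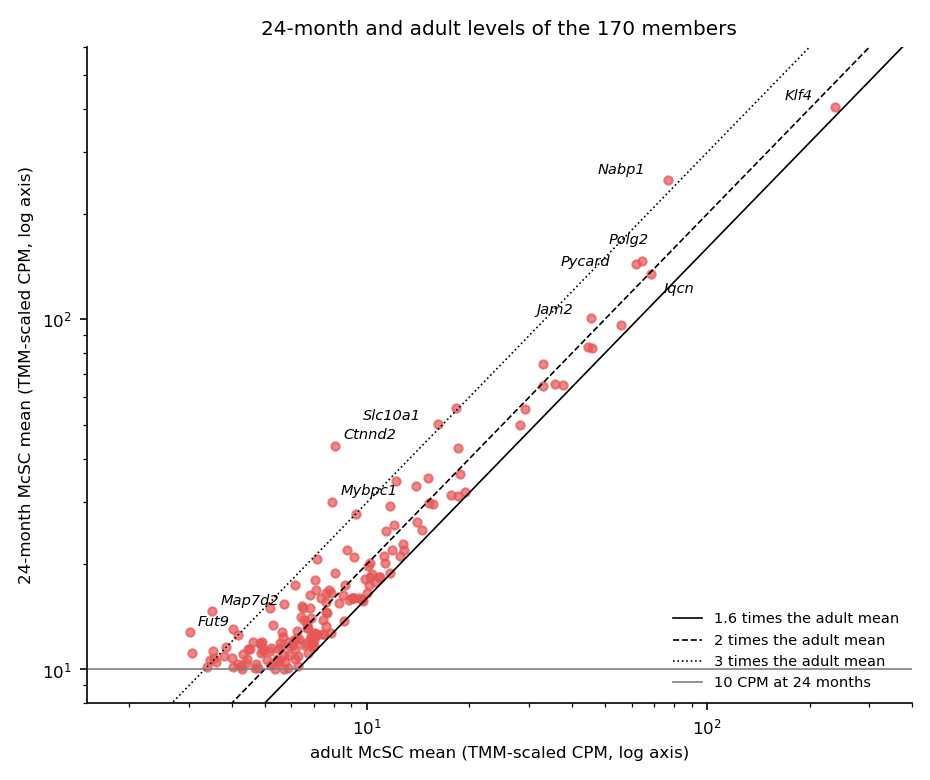
Mean level at 24 months (vertical, log axis) against the adult mean (horizontal, log axis) for each of the 170 members, in TMM-scaled CPM; black lines mark 1.6, 2 and 3 times the adult mean and the grey line 10 CPM. Most points lie close to the lower bounds of the rule, and Ctnnd2, Fut9, Map7d2, Mybpc1 and Nabp1 lie above the line of 3 times.

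Both 24-month libraries being above all 7 others held for 248 of the 7340 protein-coding genes at the level, 3.38%, so the 170 are the part of these that also reached 1.6 times. In the test across all 31961 genes, 17 were higher at 24 months than in adults, 0.0532%, and 80 were lower, 0.25% (edgeR quasi-likelihood test, adjusted p under 0.05, with 3275 genes at an unadjusted p under 0.05). DESeq2 placed 52 higher and 271 lower, and limma 850 higher and 670 lower, so that the balance of the directions turned with limma. Of the 17 by edgeR, 9 are members, which the rule favours and from which nothing is read. Among them are Ctnnd2, Fut9, Map7d2, Mybpc1, Nabp1, Slc10a1 and Jam2. The other 161 members did not pass it.

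Among adhesion genes and surface receptors, which numbered 17, Ctnnd2 had the largest ratio of all members. Ctnnd2 encodes delta-catenin, a neural partner of cadherins at cell junctions, and lies at chr15:30172593-31029341 on the plus strand (mm10). It had 41.5 and 45.6 CPM in the 24-month libraries, against 9.20, 6.97, 10.4 and 5.54 CPM in the adult libraries. The melanoblast libraries had 2.43, 6.46 and 0.853 CPM, and the groups at 24 months and in adults were separated by 3.98 times. Jam2, a junctional adhesion molecule of the immunoglobulin family (chr16:84774123-84825928, plus strand), had 110 and 92.1 CPM at 24 months, against 38.8, 47.4, 51.5 and 44.4 CPM in adults. Its melanoblast libraries were lower again, at 20.2, 22.05 and 18.1 CPM, and none of the 3 ages overlapped. Flt4, the receptor for VEGF-C, and Celsr3, an atypical cadherin, reached means of 16.3 and 20.9 CPM at 24 months, with ratios of 2.39 and 2.29. Olfr279 was the only olfactory receptor gene among the members, with 24.4 and 19.4 CPM at 24 months, against 14.4, 6.07, 11.3 and 15.5 CPM in adults.

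Of the 10 genes for secreted signals and extracellular regulators, Adm had the largest ratio and Cd109 the highest level. Adm, the precursor of the peptide hormone adrenomedullin (chr7:110627661-110629820, plus strand), had 5.26 and 16.96 CPM at 24 months, against 4.87, 1.97, 3.01 and 2.41 CPM in adults. Its ratio of 3.62 rests on 24-month replicate 2, since replicate 1 lay 1.08 times above the highest adult library. Cd109, a membrane-anchored protein that restrains TGF-beta signalling (chr9:78615546-78716253, plus strand), had 93.5 and 98.7 CPM at 24 months, against 48.2, 42.0, 74.2 and 59.6 CPM in adults. Its melanoblast libraries had 12.1, 14.2 and 7.63 CPM, so the 3 ages were again separate. Wnt5a, a WNT ligand of the non-canonical branch (chr14:28504750-28527448, plus strand), had 12.5 and 20.1 CPM at 24 months, against 7.52, 9.32, 8.50 and 8.66 CPM in adults. Its ratio was 1.92, with no overlap between the ages. Col7a1, the collagen of anchoring fibrils, reached a ratio of 1.66 while the fibrillar collagens were lower at 24 months, as described below.

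In all, 9 transcription factors and nuclear regulators were members, and they included the most abundant gene of the set. Klf4, a zinc finger factor of epithelial differentiation and cell cycle arrest (chr4:55527143-55532466, minus strand), had 322 and 489 CPM at 24 months, against 285, 287, 206 and 173 CPM in adults. Its melanoblast libraries had 89.9, 77.4 and 59.3 CPM, and the 24-month replicate 1 lay 1.12 times above the highest adult library. Rorb, a retinoid-related orphan receptor (chr19:18930605-19111196, minus strand), had 61.3 and 67.8 CPM at 24 months, against 28.8, 38.1, 29.8 and 35.2 CPM in adults. Nfe2l3, a CNC basic leucine zipper factor related to NRF2, had 71.5 and 77.96 CPM at 24 months, against 36.7, 47.7, 23.6 and 23.6 CPM in adults, and 53.9 CPM in melanoblast replicate 3. Maf, a basic leucine zipper factor, had 47.7 and 63.5 CPM at 24 months, against 24.8 to 33.6 CPM in adults. Ddit3 (CHOP), a factor of the unfolded protein response, had a ratio of 1.78, with 43.9 and 55.9 CPM at 24 months, against 23.3 to 34.4 CPM in adults.

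Pax5, the B cell identity factor, was a member at 14.5 and 27.0 CPM at 24 months, against 7.36, 5.43, 6.97 and 8.78 CPM in adults. Its marker list of B and plasma cells, 9 genes, summed to 34.3 and 43.1 CPM at 24 months, against 12.3 to 19.9 CPM in adults. The other 8 genes of the list summed to 19.8 and 16.1 CPM at 24 months, against 12.5, 6.84, 9.20 and 6.70 CPM in adults, so both 24-month libraries lay above every adult library without Pax5 as well. Of the 9, 8 had a 24-month to adult difference above 0, and Pax5 is among the 8 by the rule. The median of the 9 was 1.12 on the log2 scale, against 0.08 over all genes tested. Such a rise was not particular to B cell markers, since 7 of 7 neutrophil and 8 of 8 adipocyte markers tested were above 0 as well. For endothelium and Schwann cells it was 1 of 11 and 1 of 10. Cd79a was at 5.38 and 3.24 CPM at 24 months, against at most 3.66 CPM in adults, while Igkc was at 0.243 and 0.405 CPM, against at most 0.458 CPM. None of the 9 passed the edgeR test between 24-month and adult cells, and the part of B cells in the level of Pax5 was not tested.

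Innate immunity and immune cell genes gave 17 members. Pycard and Casp1 encode the inflammasome adaptor ASC and the protease it activates to process interleukin-1 beta. Pycard (chr7:127989708-127993867, minus strand) had 108 and 181 CPM at 24 months, against 74.3, 79.4, 48.0 and 44.9 CPM in adults, and its melanoblast replicate 3 reached 77.2 CPM. Casp1 (chr9:5298517-5307265, plus strand) had 15.1 and 14.9 CPM at 24 months, against 6.82, 8.21, 5.53 and 6.62 CPM in adults, and 0.201 to 1.98 CPM in melanoblasts. Casp1 was thus separate at all 3 ages, while adult and melanoblast libraries overlapped for Pycard. Iigp1, an interferon-induced GTPase, had 55.6 and 74.4 CPM at 24 months, against 32.3, 35.9, 51.1 and 31.0 CPM in adults. Trim30a, a tripartite motif protein that restrains innate signalling in mice, had 11.8 and 13.4 CPM at 24 months, against 3.12 to 6.85 CPM in adults. The interferon-stimulated gene list went no higher as a whole, with a sum of 564 to 594 CPM at 24 months, against 708 to 825 CPM in adults, and 0 of 30 genes past the test in either direction.

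Marker lists of other immune cells lay above or overlapped the upper part of their adult range. Macrophage and dendritic cell markers summed to 68.1 to 93.6 CPM at 24 months, against 45.8 to 67.1 CPM in adults, of which Cd68 was the largest part. T and NK cell markers summed to 17.4 to 27.1 CPM at 24 months, against 9.11 to 21.1 CPM in adults, and neutrophil markers to 14.8 to 17.8 CPM, against 7.88 to 10.7 CPM. Mast cell markers, the other KIT-positive cells of skin, summed to 11.6 to 12.6 CPM at 24 months, against 10.0 to 14.5 CPM in adults. No marker of these 4 lists passed the edgeR test, and their part in the immune members was not tested.

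Of 6 members for DNA, chromatin and RNA proteins, Nabp1 and Polg2 were abundant. Nabp1 encodes a single-stranded DNA binding protein of the DNA damage response and lies at chr1:51465862-51478425 on the minus strand. It had 130 and 369 CPM at 24 months, against 84.5, 96.2, 67.8 and 59.0 CPM in adults, and 11.8, 14.3 and 20.3 CPM in melanoblasts. The 24-month libraries differed from each other more than adult libraries did. Polg2, the accessory subunit of mitochondrial DNA polymerase gamma (chr11:106768253-106779537, minus strand), had 147 CPM in each 24-month library, against 101, 88.3, 30.6 and 36.3 CPM in adults. Its end overlaps that of Milr1 on the other strand, which is a member too at 29.96 and 25.5 CPM against 4.91 to 14.9 CPM, and how the counts of the overlap were assigned is not given in the sources used here.

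By the roles assigned, the groups with most members were 25 genes for synapse, neurite and neuronal signalling and 20 for ion channels, pumps and transporters of various tissues. Roles were not assigned to other genes at the level, so no share of them stands beside these counts. Unc13a, a priming factor of synaptic vesicles, had the highest 24-month level apart from Rtn2 among the 25, with 36.4 and 22.9 CPM, against 21.1, 11.2, 14.2 and 16.3 CPM in adults. Rtn2, a reticulon of the endoplasmic reticulum, had 32.6 and 30.6 CPM at 24 months, against 22.1, 13.8, 20.4 and 14.2 CPM in adults. S100b, a calcium-binding protein of glia and melanocytes, had 27.4 and 22.6 CPM at 24 months, against 14.7, 13.5, 14.0 and 15.9 CPM in adults. Slc10a1, a bile acid transporter best known from liver (chr12:80953183-80968705, minus strand), had 35.5 and 64.8 CPM at 24 months, against 16.6, 21.0, 13.3 and 14.0 CPM in adults. Slc2a3, the glucose transporter GLUT3, had 32.3 and 34.7 CPM at 24 months, against 19.2, 16.8, 10.5 and 9.20 CPM in adults.

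The wider list of synapse and excitability genes did not move with these members. Of its 48 genes, 0 were higher and 4 lower at 24 months by edgeR, beside 0.0532% and 0.25% of all genes tested. The median difference was 0.17 on the log2 scale, against 0.08 over all genes tested. The genes lower were Kcna1, Kcna2, Scn7a and Ank3, channel and scaffold genes of axons and glia, with differences of -4.21, -1.87, -4.21 and -1.69. Only Nrxn2 and Cacna1d of the 48 are members, at ratios of 2.06 and 1.70.

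Genes that other tissues are known for made up several smaller groups. Among 7 muscle sarcomere genes, Mybpc1, the slow form of myosin-binding protein C (chr10:88518279-88605152, minus strand), had 23.4 and 36.9 CPM at 24 months, against 9.16, 7.27, 8.50 and 6.70 CPM in adults. Its melanoblast libraries had 1.24, 1.04 and 1.05 CPM. Skeletal muscle markers summed to 52.7 to 62.5 CPM at 24 months, against 33.3 to 48.7 CPM in adults, mostly from Ttn. All 7 had a difference above 0, with a median of 0.79 on the log2 scale, against 0.08 over all genes tested, and 0 passed the edgeR test. All 8 adipocyte markers were above 0 too, with a median of 0.75 (log2), against 1 of 11 endothelium markers. Acta1 was at 0.687 and 0.463 CPM at 24 months, against 0.165 to 0.375 CPM in adults, and Ckm at 2.83 and 2.72 CPM, against 0.660 to 2.46 CPM. The list and Mybpc1 were both higher at 24 months than in adults. In 24-month replicates 1 and 2 the list summed to 62.5 and 52.7 CPM, and Mybpc1 had 23.4 and 36.9 CPM. In melanoblasts the list summed to 25.5, 19.3 and 50.4 CPM, and Mybpc1 stayed near 1 CPM. Ttn made up 14.6 to 42.3 CPM of these melanoblast sums, and no other marker of the list exceeded 2.45 CPM there. The part of muscle cells in the level of Mybpc1 was not tested. Myh11, the smooth muscle myosin, had a ratio of 1.88. Acta2 of the same cells was at 5.54 and 5.44 CPM at 24 months, against 3.71 to 5.92 CPM in adults. Of 8 pericyte and smooth muscle markers, Myh11 among them, 6 had a difference above 0, with a median of 0.28 (log2). Without Myh11 the list summed to 117 and 80.6 CPM at 24 months, against 114 to 128 CPM in adults. Cspg4 was the largest part of this sum, at 55.1 and 38.4 CPM at 24 months and 57.0 to 89.6 CPM in adults. Its level was highest in melanoblasts, at 112 to 209 CPM. The part of pericytes and smooth muscle cells in the level of Myh11 was not tested.

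A group of 4 keratins and epidermal genes was among the members. Krt10, a keratin of differentiating epidermis, had 23.2 and 20.6 CPM at 24 months, against 11.0, 14.3, 14.4 and 11.8 CPM in adults, and Sfn, an epithelial 14-3-3 protein, had 25.3 and 46.9 CPM, against 15.3 to 23.6 CPM. The keratinocyte list as a whole summed to 963 to 1133 CPM at 24 months, against 1137 to 2498 CPM in adults. Its most abundant keratins, Krt5 and Krt15, lay below every adult library. Krt5 was at 175 and 108 CPM against 227 to 576 CPM, and Krt15 at 132 and 104 CPM against 204 to 522 CPM.

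A further 7 members encode mucins or matrix proteins of epithelia and the inner ear. Muc6, Muc2 and Muc5b are neighbours on chromosome 7, from 141633456 to 141873084, with ratios of 1.86, 2.57 and 2.85. Muc6 had 89.3 and 77.5 CPM at 24 months, against 40.3, 32.8, 51.1 and 54.7 CPM in adults, and 53.95 CPM in melanoblast replicate 3. Mucin genes hold repeats that resemble each other, so counts may be shared between them. In all, 10 pairs of neighbouring members lay within 100 kb of each other, and chromosome 7 held 23 members, 13.5% of the 170, against 6.91% of the 7340 genes at the level.

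Cilia and axoneme genes gave 11 members, led by Iqcn at 147 and 122 CPM at 24 months, against 83.2, 89.9, 49.3 and 51.3 CPM in adults. Among 9 metabolic enzymes, Fut9, a fucosyltransferase that makes the Lewis x (CD15) antigen (chr4:25609332-25800244, minus strand), had 8.57 and 17.02 CPM at 24 months, against 3.90, 3.59, 2.39 and 2.16 CPM in adults. Ggcx, the vitamin K-dependent gamma-glutamyl carboxylase, was the most abundant of them at 83.2 and 82.2 CPM, against 31.0 to 59.8 CPM. Map7d2, a microtubule-associated protein on chromosome X, had 12.3 and 17.1 CPM at 24 months, against 2.39 to 5.09 CPM in adults, a ratio of 4.20.

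**Figure D2:**
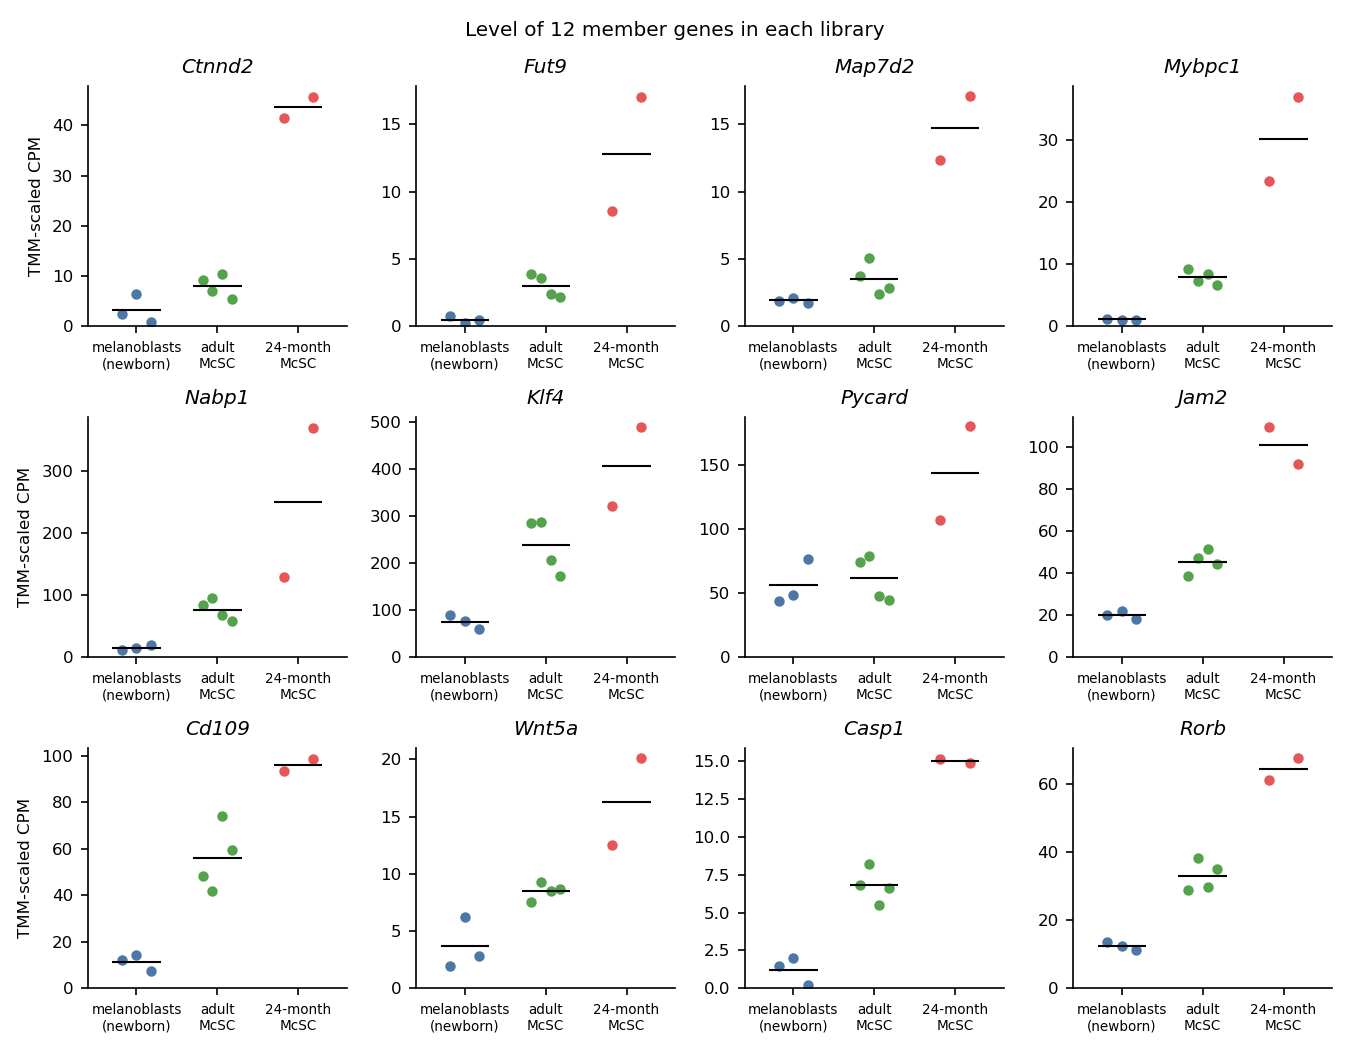
TMM-scaled CPM (vertical, from 0) of 12 members in each of the 9 libraries; points are libraries, lines are group means, and ages run from newborn to 24 months. Both 24-month points lie above every other point in each panel, and they lie far apart from each other for Nabp1, at 130 and 369 CPM.

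The rule did not rank adult McSC against melanoblasts, but it kept every melanoblast library below both 24-month libraries and so left out genes that were high in melanoblasts. The direction and the number of members past the test are therefore given as a description, and nothing is read from them. In that comparison 61 of the 170 members were higher in adult cells and 0 were lower by edgeR, which is 35.9% (adjusted p under 0.05 over all genes tested). Over all 31961 genes, 15.1% were higher in adult cells and 18.3% lower. Over the 7170 other protein-coding genes at the level, 11.3% were higher and 54.2% lower. The median difference was 0.78 on the log2 scale for the members, 0.39 over all genes tested and -0.68 (log2) for the other genes at the level. At an unadjusted p under 0.05, 80 members were higher and 3 lower. DESeq2 placed 69 higher and 1 lower, Snx20, and limma placed 102 higher and 1 lower, Mroh2a. By means, 149 of the 170 lay above melanoblasts in adult cells, and since the rule placed the 24-month level above both groups, no order by age is read from this.

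A pair of unnamed gene models had the largest such differences, 4.30 and 3.52 on the log2 scale. Of the named genes, Iigp1 was higher in adult cells by 3.48 ± 0.46 on the log2 scale (SE, edgeR adjusted p = 1.4e-05) and Elovl4, which elongates very long chain fatty acids of the skin barrier, by 2.95 ± 0.40 (edgeR adjusted p = 3.7e-06). Mybpc1 was higher by 2.83 ± 0.31, Gca, a calcium-binding protein of granulocytes, by 2.80 ± 0.45, Fut9 by 2.64 ± 0.47 and Casp1 by 2.48 ± 0.45, with edgeR adjusted p-values from 2.1e-07 to 0.00015. S100b followed at 2.39. Among abundant members, Nabp1 and Cd109 were each higher by 2.31, Iqcn by 1.94, Klf4 by 1.65 and Jam2 by 1.18. Adhesion gene Ctnnd2 passed at 1.30 ± 0.43 (edgeR adjusted p = 0.025), but not without adult replicate 1 or 3 or melanoblast replicate 1. Pycard, at 0.12 ± 0.26, Nfe2l3, at 0.09 ± 0.32, and Polg2, at 0.85 ± 0.42, did not pass. By role, 8 of 17 immune genes, 8 of 25 synaptic and neurite genes, 6 of 20 channel and transporter genes, 6 of 10 secreted genes, 5 of 7 muscle genes and 0 of 7 mucin and inner ear genes were higher. The count of members higher was 120 without melanoblast replicate 3 and 40 without melanoblast replicate 1. It was 47 without adult replicate 1 and 64 without adult replicate 2.

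**Figure D3:**
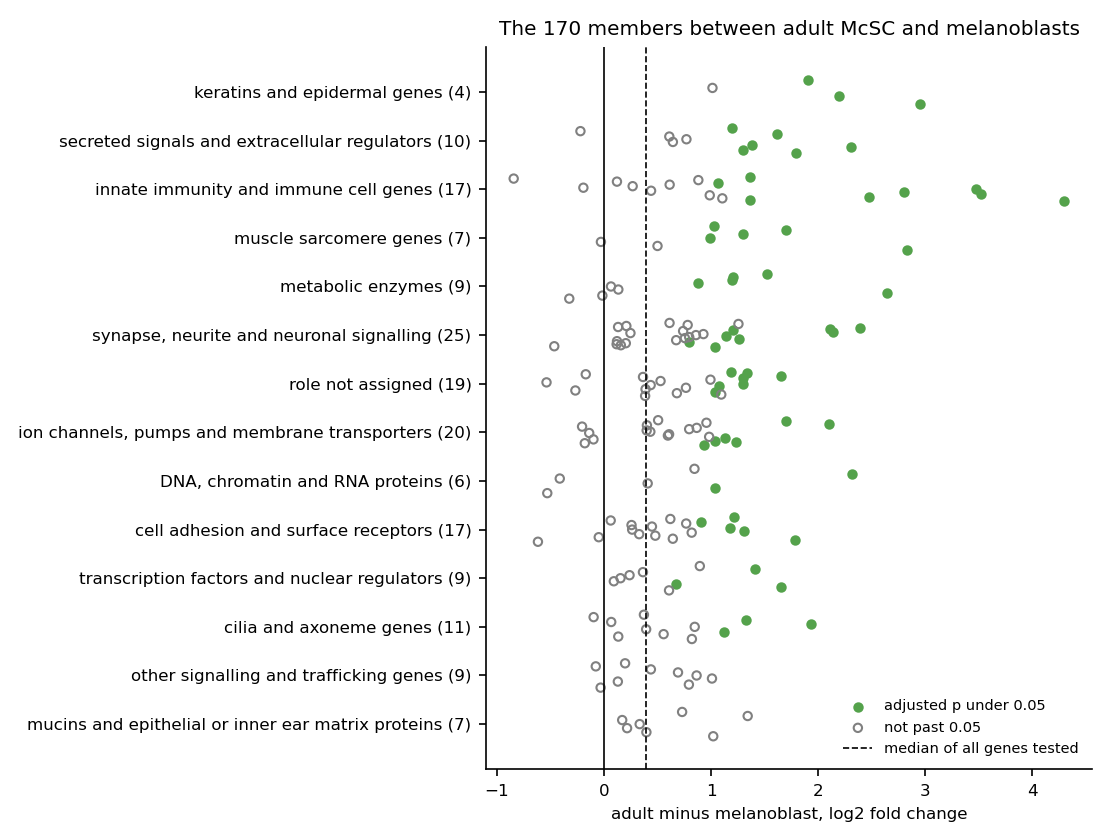
Adult minus melanoblast log2 fold change (horizontal) of each of the 170 members, by role group with the number of members; filled points passed an adjusted p of 0.05 in edgeR and open points did not, and the dashed line is the median of all genes tested, 0.39. All filled points lie to the right of 0, and none belongs to the mucin and inner ear genes.

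Members shared an order among the libraries within each age that the rule had not used. Adult replicate 1 was the highest adult library for 110 members, 64.7%, against 7.66% of the other 7170 genes at the level. Adult replicate 2 was the lowest for 99 members, 58.2%, against 7.49%, and melanoblast replicate 3 was the highest of its group for 127, 74.7%, against 9.37%. All 3 held for 74 members, 43.5%, against 0.851% of the other genes, and none for 23 members, 13.5%, against 81.0%. Among 2687 other genes matched to the lower and middle levels of the members, all 3 held for 1.94% and none for 72.9%. The same order is seen in how many genes a library detected. Thinned to 12594770 counts each, the libraries detected 41658 and 41044 genes at 24 months, against 40759, 36838, 39389 and 39116 in adult replicates 1 to 4. The melanoblast replicates detected 30188, 27408 and 33516 genes. The share of counts on TEC loci, a GENCODE class of transcribed loci with no established gene, was 0.905% and 1.07% at 24 months, against 0.761%, 0.693%, 0.587% and 0.625% in adults and 0.247%, 0.208% and 0.545% in melanoblasts. What part this shared order of the libraries has in the members' levels was not tested.

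The 74 members with all 3 marks of this order included 14 of the 25 synaptic genes, 10 of the 20 channel and transporter genes, 8 of the 17 adhesion genes, 6 of the 11 cilia genes, 6 of the 7 mucin and inner ear genes and 12 of the 19 with no role assigned. They also included 4 of the 17 immune genes, 1 of the 9 transcription factors and 0 of the 6 DNA, chromatin and RNA genes, and differences between role groups were not tested. Their median level relative to each member's mean over the 9 libraries was 2.00 and 1.69 at 24 months, against 1.26, 0.575, 0.902 and 0.887 in adults. The 23 with none stood at 1.71 and 2.20 at 24 months, against 0.814, 1.09, 0.827 and 0.961 in adults. These profiles follow from how the 74 and the 23 were picked. Those 23 include Ctnnd2, Map7d2, Jam2, Casp1, Iigp1, Gca, Wnt5a, Rorb, Maf, Klf4, Krt10, Elovl4, Maob, which breaks down amines, Gsta4, which detoxifies lipid aldehydes, Cdo1, which degrades cysteine, and Bmp15. Median exonic GC was 53.8% in the 74 and 46.7% in the 23.

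**Figure D4:**
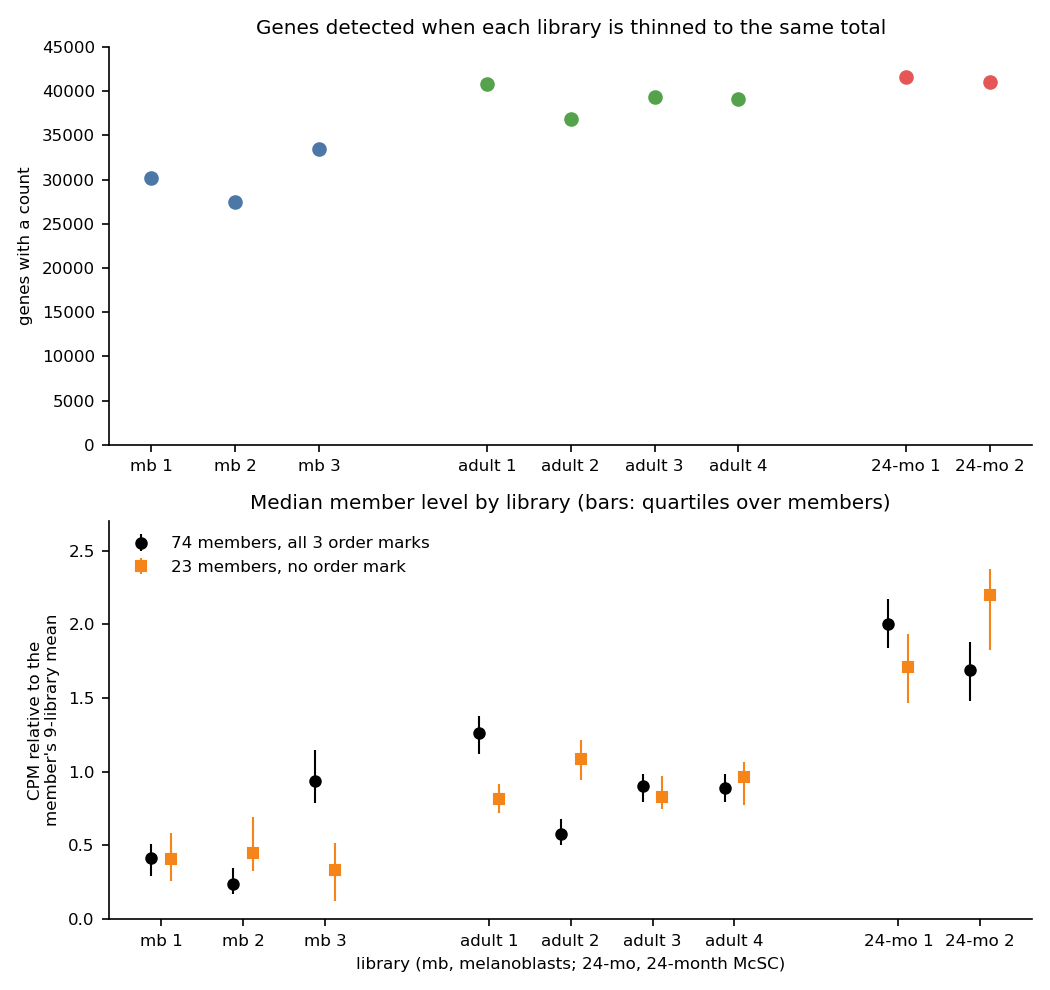
Upper panel, genes with a count in each library after thinning to 12594770 counts; lower panel, median level of members relative to their own 9-library mean, with quartiles over members as bars, for the 74 members with all 3 order marks (black circles) and the 23 with none (orange squares). The circles were picked for being lowest at adult replicate 2 and highest at adult replicate 1 and melanoblast replicate 3, and the squares for none of these, so the lower panel shows the size of these steps and not a separate result.

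Members were longer and richer in G and C than other genes at their level. Median exonic length was 7029 bases for members, 5878 for the other 7170 genes and 4904 for the 2687 matched ones, and exonic GC was 52.6%, 48.2% and 49.9%. When the 7340 genes were split into 5 equal parts by GC, 0.749% were members in the part with the lowest GC and 4.29% in the part with the highest. The genes that are not members went the other way, with a median 24-month to adult difference of -0.14 (log2) in the lowest part and -0.39 (log2) in the highest. Per kilobase of exon, the median member was at 2.28 CPM at 24 months and 1.05 CPM in adults. Olfactory and vomeronasal receptor genes, best known from sensory neurons of the nose and 1426 in number, summed to 1036 ± 128 CPM at 24 months (SD, n = 2) and 922 ± 201 CPM in adults (SD, n = 4), a ratio of 1.12. Their 95th percentile per kilobase was 0.730 CPM at 24 months, and 3 members, Bsn, D430041D05Rik and Cacna1e, lay at or under it.

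The loci of 83 members overlap another annotated gene, and for 10 of these the other gene was at least as high at 24 months. Among those 10 are Milr1, Mettl23, Mrnip, Ankmy1, Ano8, Ulk4, Snx32, Cacna1d and St6galnac5. Reads from the partner cannot be told apart where the counting took no account of strand, so their ratios are uncertain. Unnamed gene models made up 8 members.

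Other gene lists were compared between 24-month and adult cells to place the members. Of 482 genes tested in 22 lists, 1 was higher and 14 were lower by edgeR. Over all 31961 genes tested, 0.0532% were higher and 0.25% lower. A count of 0 higher in a list, here or above, is near that share, and nothing is read from it. At an unadjusted p under 0.05, 17 were higher and 87 lower. The lower ones were 7 of 30 collagen and matrix genes, Col1a1, Col1a2, Col3a1, Col4a1, Col4a2, Nid2 and Sparc, with Igfbp3 and Igfbp7 of the senescence list, Tgfbi of the TGF-beta list and the 4 axonal genes above. DESeq2 placed 2 higher and 31 lower, and limma 10 higher and 54 lower. Of 34 lysosome, 18 pigment, 15 lineage identity, 20 G2/M, 21 quiescence, 17 p53 and 16 unfolded protein response genes, 0 passed in either direction by edgeR, though Klf4 of the quiescence list and Ddit3 of the unfolded protein list are members. The same held for the lists of S phase, MHC class I and class II, complement, WNT, NF-kB, immediate early, heat shock, antioxidant and lipid genes, and Gsta4 of the antioxidant list is a member. All 9 MHC class II genes had a difference above 0, with a median of 0.81 (log2), against 4 of 18 class I genes and -0.28 (log2). The class II genes summed to 32.7 to 87.0 CPM at 24 months, which overlapped the 27.6 to 53.6 CPM of adults. Among 146 marker genes of other cell types, 0 were higher and 9 were lower by edgeR, beside the same shares of all genes tested. Among the lower ones were the fibroblast genes Col1a1, Col1a2 and Col3a1, the Schwann cell genes Mbp, Pmp22, Scn7a and Cdh19, and Cd34. At an unadjusted p under 0.05, 18 marker genes were higher and 26 lower, DESeq2 placed 1 higher and limma 17.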

How the data were processed

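RNA-seq was analysed from the counts the authors deposited: raw counts per Ensembl gene, not normalized, for 49671 genes in each of 9 libraries. Per the labels' protocols, 20 ng of RNA was amplified with the Ovation RNA-Seq System V2 before library preparation, which can change the balance of transcripts. Per the submitters' processing notes, Trimmomatic 0.36, FastQC 0.11.8, STAR 2.5.2, SAMtools 1.9, DESeq2 1.22.2 and build mm10 were used. The counting program, its strand setting and how it handled reads with several alignments were not given in the sources used here.

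Symbols, biotypes and coordinates came from GENCODE, which matched 49326 identifiers. The other 345, with 0.047% of counts, were tested too. In edgeR 4.0.16 (R 4.3.3), filterByExpr kept 31961 genes, TMM factors gave CPM, and a model of 3 group means was fitted to all 9 libraries, with the robust quasi-likelihood F test and Benjamini-Hochberg adjustment at 0.05. A gene with 0 counts may still reach up to 3 counts, or 0.117 to 0.187 CPM, which covers counting error only. The fit was tested on simulated data. Tried in place of it were limma 3.58.1 (voom with sample quality weights), DESeq2 1.42.0, other factors, filters and thresholds, a replicate block and leaving out each library. Group and replicate were taken from sample titles. No pair of libraries within a group agreed within counting noise, so none was taken for a library deposited more than once, and each counted as a replicate as titled. This does not show that the pools were independent.

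The members, gene lists, marker lists and comparisons were chosen with earlier results of these data known, and roles were assigned after the members were known. Genes named are those with the 12 largest ratios, the 10 highest levels, the 6 largest and 6 smallest adult to melanoblast differences past 0.05, list genes, those at the thresholds and up to 4 per role. Flt4, Wnt5a and others named beside them to fill a role, or for having no order mark, were chosen after their values were seen. Gene models with no name were counted, not described, except D430041D05Rik. Some genes that this rule takes are not reported here.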

Additional observations from a re-analysis of the deposited data

Results flagged for a closer look

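In 3 of 70 named members, 1 adult library stood far from the other 3, by Dixon's test for 4 samples. Chance alone flags about 1 in 20 groups. Trim30a had 6.85 CPM in adult replicate 3, against 3.12 to 3.47 CPM in the others. Sspo, the matrix protein SCO-spondin, had 15.3 CPM in adult replicate 1, against 5.82 to 7.02 CPM, and Fer1l5, a ferlin, had 11.3 CPM in adult replicate 1, against 6.04 to 6.80 CPM. Both 24-month libraries lay above these values for all 3 genes, which the rule requires of every member, so nothing is read from it.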

How the results depend on the processing

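The number of members turns on the scaling and on which libraries enter. Against 170 by the rule, no scaling gave 723, factors from abundant genes 640, and upper quartile factors 286, and each of these held all 170. Factors from abundant genes moved the median of all genes by 24-month minus adult difference to 0.37 (log2), against 0.08. RLE factors gave 137, of which 136 are members. A ratio of 2 gave 83, a level of 5 CPM gave 488, and no condition on overlap gave 287. Leaving out each library gave 166 to 310, with 303 without 24-month replicate 1 (118 of them members) and 310 without replicate 2 (150 of them members). Through 16 settings of factors, medians and left-out libraries, 87 members were kept in each. TMM factors over all genes, a setting chosen after seeing the data, gave 167, of which 160 are members.

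Of the 61 members higher in adult cells than in melanoblasts, the count was 112 with factors from abundant genes, 92 with no filter, 92 with the stricter filter, 102 with limma, and 40 to 120 without single libraries. The members lower numbered 0, and 1 with DESeq2, 1 with limma, and 0 to 1 without single libraries. Of 29 named members that passed, 19 of 522 alternative values no longer passed and none changed sign. Among ratios of 70 named members, 25 of 700 alternative values moved by more than the spread between libraries, and none changed sign.

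List genes higher at 24 months numbered 1, and 0 with RLE factors, factors from abundant genes or TMM factors over all genes, 4 with no filter, 2 with DESeq2 and 10 with limma. Those lower numbered 14, and 4 with factors from abundant genes, 33 with no filter, 6 with the stricter filter, 31 with DESeq2 and 54 with limma. Without single libraries these were 0 to 2 and 1 to 29. Marker genes higher numbered 0, and 1 with no filter, 1 with DESeq2 and 17 with limma. Those lower numbered 9, and 2 with factors from abundant genes, 18 with no filter and 3 with the stricter filter, and without single libraries these were 0 to 1 and 1 to 10. The cause was not tested. Same-numbered libraries shared only a number, with correlations of their deviations from -0.080 to 0.20. With the replicate block, members higher in adult cells numbered 81, list genes 0 higher and 31 lower, and marker genes 1 higher. The simulated data had the same fixed spread for every gene. How small a difference the 2 libraries at 24 months could show with the measured spread was not tested.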
